A study of Heterocephalus glaber and Mus musculus with 9 samples.

Results

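The genes described here code for collagens, laminins and the other proteins that build, cross-link and cut the extracellular matrix of the spleen. They were picked by symbol, ignoring case, as those starting with Col, Lama, Lamb or Lamc and a digit, with Fbln, Fbn, Lox, Timp or Adamts, or with Mmp and a digit, plus Fn1, Dcn, Lum, Bgn, Sparc, Postn and Hspg2. The granulocyte enzymes Mmp8 and Mmp9 were left out, elastin (Eln) was not analysed here, and Loxhd1 met the rule by its letters although it is no lysyl oxidase. The choice gave 97 of the 12946 genes of the table. Matrix genes among the 1025 entries without a symbol would be missed by it. RNA had been sequenced from 1 spleen of each of 9 healthy, untreated animals in 3 groups of 3, to learn how naked mole-rat (NM-R) spleens of different size differ from each other and from those of mice. The mice were wild-type C57Bl/6N males of 2 months, kept at about 22°C. The NM-Rs were kept at 29°C and had either a small spleen (ssNM-R, animals 2, 3 and 6, all male, 30, 26 and 23 months old) or an enlarged one (lsNM-R, animals 1, 4 and 5, 24, 29 and 23 months old, of which animal 4 was the only female).

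Collagens are secreted as triple helices and form either rope-like fibrils or fine networks. In the spleen, fibrils fill the capsule and the trabeculae, and reticular fibres carry the pulp. Basement membranes lie under the lining of blood vessels and sinuses and are made of type IV collagen, laminin, nidogen and perlecan. Lysyl oxidases cross-link the fibres, matrix metalloproteinases and ADAMTS proteases cut them, and the Timp proteins inhibit these enzymes.

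Values are normalized counts, that is, the reads of a gene divided by 1 size factor per library, without a correction for the length of the gene. The libraries held 10441982 to 11180912 reads in mice, 7815326 to 18219644 in ssNM-Rs and 8327759 to 18387599 in lsNM-Rs, so that the error of counting was smallest in ssNM-R 6, lsNM-R 4 and lsNM-R 5, the deepest 3. The matrix genes took 0.575% to 0.745% of the reads in mice and 0.968% to 1.58% in NM-Rs, and in each spleen between 3 and 9 of them had 3 reads or fewer. The reads of each species were counted on its own genome and its own gene models, so a difference between the species in RNA cannot be told apart from a difference in the annotated length of a gene, nor from age or housing temperature. In whole spleens, fewer cells of a type and less RNA per cell cannot be told apart either. Tlx1, a transcription factor needed to form a spleen, had 746 ± 156 in mice and 853 ± 111 in NM-Rs, and the red pulp genes Hmox1, Vcam1 and Slc40a1 were also present in all 9 spleens, whereas the B cell gene Cd79a had 9202 ± 737 in mice and 761 ± 219.6 in NM-Rs.

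The matrix genes differed between NM-R and mouse spleens in both directions. In NM-Rs, most basement membrane genes, the chains Col6a1 and Col6a2 of collagen VI, collagens XII and XVIII, periostin and fibulin-5 were higher than in mice, whereas Col6a3, Col4a5, Col8a2, collagen XIV, biglycan, decorin, lysyl oxidase-like 1 and several proteases were lower. Of the 97 genes, 47 were higher and 28 lower at a limma adjusted p under 0.05 over all genes of the table, and 22 did not pass. These counts stand beside a background in which 39.7% of all genes were called higher and 38.8% lower, and the same shares are the background of the counts for each role group and gene list. The log2 difference (NM-R minus mouse, of the normalized count plus 1) had a median of 0.39 over the matrix genes, against 0.00972 over all genes, and its median size regardless of sign was 1.59, against 1.10. The median over all genes lies near 0 because the size factors centre the median gene of each library. All 6 NM-R spleens lay above all 3 mice for 45 matrix genes and below them for 24, shares that among all genes were 36.4% and 36.2%. Among the 70 genes whose mean reached 100 normalized counts in mice or in NM-Rs, 35 were higher and 18 lower. By role, the median log2 difference was highest for the other collagens, at 1.90, and the basement membrane and network collagens, at 1.74. It was 0.75 for laminins and perlecan, and it was lowest for the ADAMTS-like genes, at -2.65, the lysyl oxidases, at -0.39, and the metalloproteinases, at -0.37.

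**Figure D1:**
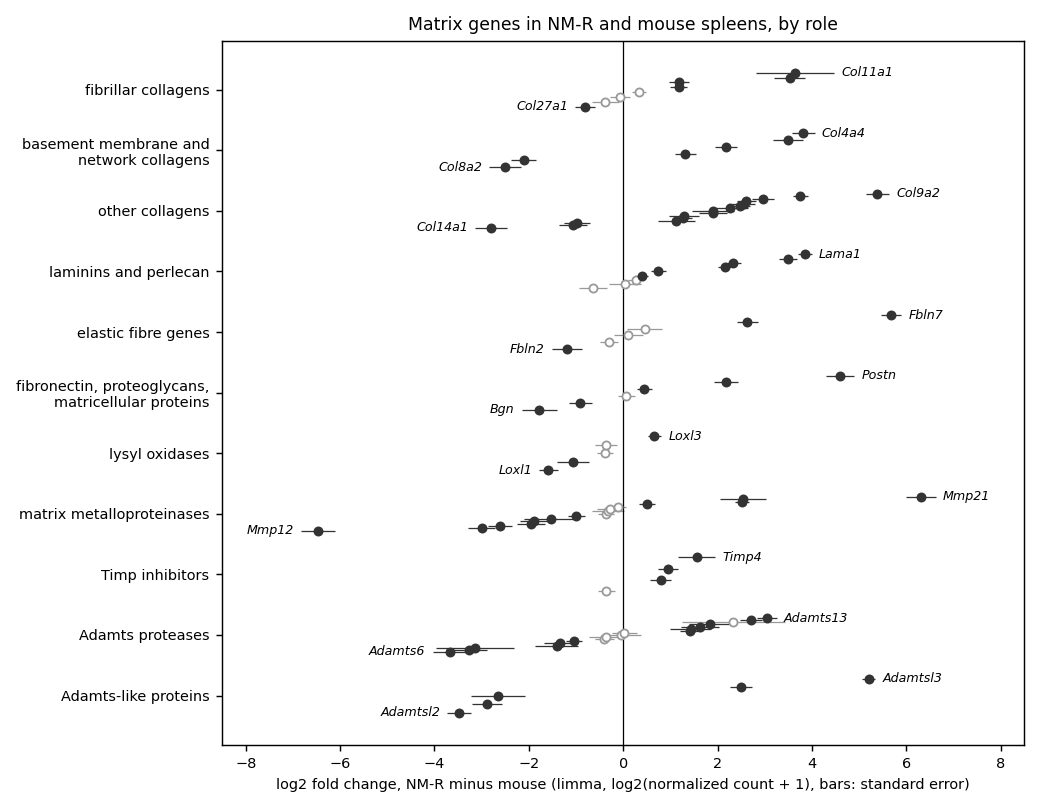
Log2 difference (horizontal axis, NM-R minus mouse, with its standard error) of 96 matrix genes in 11 role groups, Loxhd1 left out. Filled points passed a limma adjusted p of 0.05 and open points did not, and the highest and lowest gene of a group is named where it passed. The basement membrane genes Col4a4 and Lama1 lie to the right, at 3.82 and 3.84, and Col14a1, Adamts6 and Mmp12 to the left, at -2.80, -3.68 and -6.47.

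Fibrillar collagens differed in both directions. Of 8 genes, 4 were higher in NM-Rs and 1 was lower. Col3a1 (chromosome 1, 45368383 to 45406551 in mm9), the chain of the type III collagen of reticular fibres, had 2601, 2499 and 2552 normalized counts in the 3 mice and between 3593 and 7921 (median 5556) in the 6 NM-Rs. The groups did not overlap, and the mean was 2.34-fold that of mice (log2 difference 1.18, SE 0.22, limma adjusted p = 6.33e-04). Col1a1 (chromosome 11, 94797538 to 94814356), a chain of the type I collagen of thick fibrils, had 1971, 1809.8 and 1956 in mice and between 941 and 2320.5 (median 1475) in NM-Rs, a wide NM-R range that enclosed all 3 mice (log2 difference -0.38, SE 0.28, limma adjusted p = 0.237). The other type I chain, Col1a2 (chromosome 6, 4454814 to 4491543), had 4125, 3858 and 3744 in mice and between 3907 and 6407 (median 4715) in NM-Rs. It did not pass either (log2 difference 0.33, SE 0.15, limma adjusted p = 0.0697), although it was called higher without lsNM-R 1, at 0.41, with libraries scaled to the same upper quartile, at 0.43, and by DESeq2, at 0.35.

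Col5a1, which limits fibril width, was higher in NM-Rs at a log2 difference of 1.17, limma adjusted p = 1.26e-04, while its partner chain Col5a2 had -0.074, limma adjusted p = 0.753. Col11a2, best known from cartilage fibrils, had 252, 228 and 228 in mice and between 1151 and 3991 (median 3088) in NM-Rs, 12.5-fold the mouse mean (log2 difference 3.53, SE 0.32, limma adjusted p = 4.00e-06). Its partner Col11a1, with the highest fold change of the fibrillar group, stood at 6.02, 0 and 0 in mice and between 8.85 and 94.6 (median 22.3) in NM-Rs, so it was called (log2 difference 3.63, SE 0.83, limma adjusted p = 0.00241) at a low level throughout. Col27a1, another cartilage fibril chain and the lowest of the group, had 604, 509 and 383 in mice and between 207 and 380.4 (median 284) in NM-Rs (log2 difference -0.80, SE 0.21, limma adjusted p = 0.00531).

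Basement membrane genes were mostly higher in NM-Rs. Of 9 laminin and perlecan genes, 6 were higher in NM-Rs and 0 lower, and of 6 basement membrane and network collagens 4 were higher and 2 lower. Col4a1 (chromosome 8, 11198423 to 11312826), one of the main chains of type IV collagen, had 5125, 3954 and 3789 in mice and between 8479 and 15465 (median 9297) in NM-Rs (log2 difference 1.31, SE 0.22, limma adjusted p = 3.18e-04). Its head-to-head neighbour Col4a2 (chromosome 8, 11312805 to 11449287), the other main chain, had 3491, 2901 and 2662 in mice and between 10598 and 20968 (median 11987) in NM-Rs (log2 difference 2.17, SE 0.24, limma adjusted p = 1.36e-05). For both chains the lowest NM-R spleen lay above the highest mouse. Hspg2 (chromosome 4, 137024634 to 137126545), which codes for the heparan sulphate proteoglycan perlecan, had 3485, 2835 and 2263 in mice and between 11593 and 14425 (median 12361) in NM-Rs. Its NM-R values lay within a narrow range, and their mean was 4.39-fold that of mice (log2 difference 2.15, SE 0.13, limma adjusted p = 2.57e-07).

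Lama5 (chromosome 2, 179911078 to 179960564), a laminin alpha chain of mature vessel walls, had 477, 352 and 288 in mice and between 2938 and 5727 (median 4171) in NM-Rs, 11.2-fold the mouse mean (log2 difference 3.49, SE 0.19, limma adjusted p = 1.11e-07). Lama1, the alpha chain known from early embryos, was the highest of the group by fold change, with 30.1, 42.4 and 31.5 in mice and between 407 and 629 (median 521) in NM-Rs (log2 difference 3.84, SE 0.15, limma adjusted p = 1.34e-08). The beta chain Lamb1 had 175 ± 24.6 in mice and 895 ± 179.7 in NM-Rs (mean ± SD, n = 3 and 6) and a log2 difference of 2.33, limma adjusted p = 7.49e-07, whereas the other beta chain Lamb2 had 1489 ± 214 in mice and 1969.8 ± 407 in NM-Rs (log2 difference 0.39, limma adjusted p = 0.0289) and overlapped between the species. The call of Lamb2 was lost without mouse 3, at 0.27, and without lsNM-R 5, at 0.33. Lamc1 (chromosome 1, 155066052 to 155179916), the gamma chain shared by most laminins, had 1003, 937 and 849 in mice and between 1209 and 2022 (median 1559) in NM-Rs (log2 difference 0.75, SE 0.16, limma adjusted p = 0.00167). All NM-R spleens were thus above all mice for Lamc1, but by less than for Lamb1, Lama1 or Lama5.

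Lama2, the alpha chain of muscle, did not pass, at a log2 difference of 0.27, limma adjusted p = 0.163. Lamc3, another gamma chain, did not pass either, at a log2 difference of 0.030, limma adjusted p = 0.939, the sign of which depended on the spleens and the scaling used. Among the minor network collagens, Col4a4, a chain of kidney and lung basement membranes, had 13.0, 10.9 and 10.5 in mice and between 124 and 250.2 (median 169) in NM-Rs (log2 difference 3.82, SE 0.24, limma adjusted p = 2.42e-07). Col4a5, which joins it there, went the other way, from 96.2 ± 16.7 to 21.9 ± 6.00 (log2 difference -2.11, limma adjusted p = 4.42e-05). The 2 chains of type VIII collagen, a network collagen of vessel walls, were also opposed. Col8a1 was at 42.7 ± 5.97 in mice and 522 ± 228 in NM-Rs (log2 difference 3.49, limma adjusted p = 3.96e-06), and Col8a2, the lowest of the group, had 333, 305 and 209.7 in mice and between 27.3 and 93.5 (median 46.6) in NM-Rs (log2 difference -2.504, SE 0.33, limma adjusted p = 6.25e-05).

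**Figure D2:**
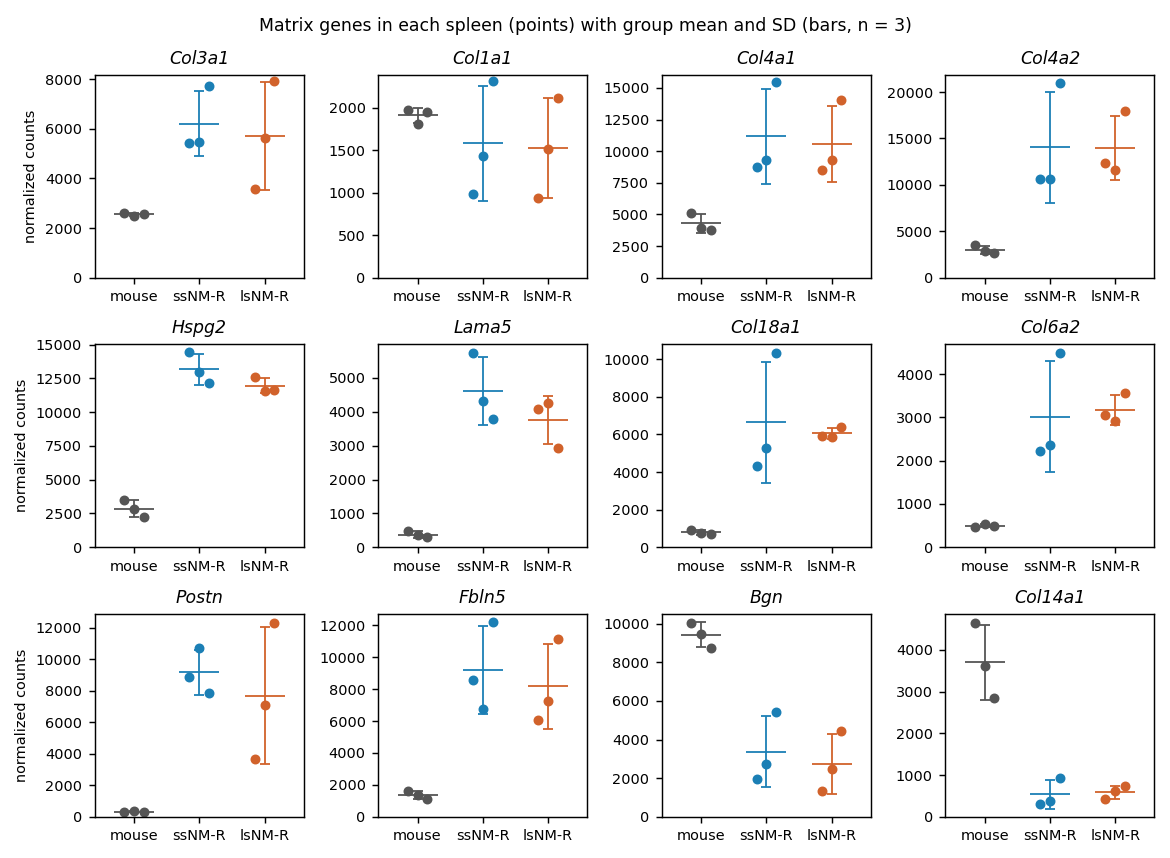
Normalized counts (vertical axes, each from 0) of 12 matrix genes in every spleen, with points for spleens and bars for the mean and SD of each group of 3. The mice lie below all NM-Rs for Col3a1, Col4a1, Col4a2, Hspg2, Lama5, Col18a1, Col6a2, Postn and Fbln5, above all NM-Rs for Bgn and Col14a1, and within the NM-R range for Col1a1.

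Of the 15 other collagens, 12 were higher in NM-Rs and 3 lower. Col18a1 (chromosome 10, 76514923 to 76629293), the basement membrane collagen whose end is released as endostatin, had 916, 778 and 679.5 in mice and between 4313 and 10329 (median 5896) in NM-Rs, 8.03-fold the mouse mean (log2 difference 2.96, SE 0.23, limma adjusted p = 1.33e-06). The highest NM-R value was that of ssNM-R 6, and the other 5 were at most 6383. Collagen VI forms beaded filaments around cells from 3 chains. Col6a1 (chromosome 10, 76171537 to 76188913) had 682, 696 and 694 in mice and between 1197 and 2336 (median 1743) in NM-Rs (log2 difference 1.27, SE 0.19, limma adjusted p = 1.56e-04), and Col6a2 had 464, 533 and 482 in mice and between 2214 and 4491 (median 2986) in NM-Rs (log2 difference 2.61, SE 0.20, limma adjusted p = 1.15e-06). Col6a3, by contrast, had 979, 849 and 718 in mice and between 306 and 889 (median 346) in NM-Rs. It was lower in NM-Rs (log2 difference -1.06, SE 0.30, limma adjusted p = 0.00826), but ssNM-R 6, with the highest value, overlapped the mice and the other 5 NM-Rs were at most 409.

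The collagens that coat the surface of fibrils were opposed as well. Col14a1 had 4647, 3612 and 2843 in mice and between 305 and 930.2 (median 512) in NM-Rs, 6.59-fold lower by the means and the lowest of the other collagens (log2 difference -2.80, SE 0.33, limma adjusted p = 2.71e-05). Col12a1, another collagen of this kind, had 380.3, 409.8 and 219 in mice and between 1430.4 and 2307 (median 1738) in NM-Rs (log2 difference 2.47, SE 0.22, limma adjusted p = 3.60e-06). Col9a2, a fibril-surface collagen of cartilage, had the highest fold change of the group, with 3.01, 5.43 and 6.29 in mice and between 151 and 308 (median 250.5) in NM-Rs (log2 difference 5.38, SE 0.25, limma adjusted p = 3.56e-08). The transmembrane collagens Col13a1 and Col17a1, the latter a part of the hemidesmosomes of epithelia, were higher at log2 differences of 2.55 and 3.75 (limma adjusted p = 5.08e-06 and 2.49e-08). The remaining 6 genes, Col6a6, Col9a1, Col19a1, Col25a1, Col26a1 and Col28a1, were at a mean under 100 in both species. The first 5 of these were called higher, at log2 differences of 1.12 to 2.26, and Col28a1 lower, at -0.98, with Col9a1 read only once in the 3 mice together. The call of Col19a1 was lost without mouse 2, at 1.11, and without mouse 3, at 0.76.

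Ratios of chains were compared within each spleen, where the size factor cancels. Type I, IV and VI collagen are each built from both chains of a pair, whereas Lamb1 and Lamb2 are alternative beta chains of different laminins. Col4a1 over Col4a2 was 1.42 ± 0.0527 in mice and 0.783 ± 0.0668 in NM-Rs (mean ± SD, n = 3 and 6). Col6a1 over Col6a2 was 1.41 ± 0.0878 and 0.555 ± 0.0332, and Col6a3 over Col6a1 1.23 ± 0.2005 and 0.250 ± 0.0709. Col1a1 over Col1a2 was 0.490 ± 0.0286 and 0.304 ± 0.0676. Lamb2 over Lamb1 was 8.498 ± 0.195 and 2.28 ± 0.611. In all 5 ratios every mouse lay above every NM-R. A ratio of counts also contains the ratio of the annotated gene lengths, which cannot be told apart from RNA between species.

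**Figure D3:**
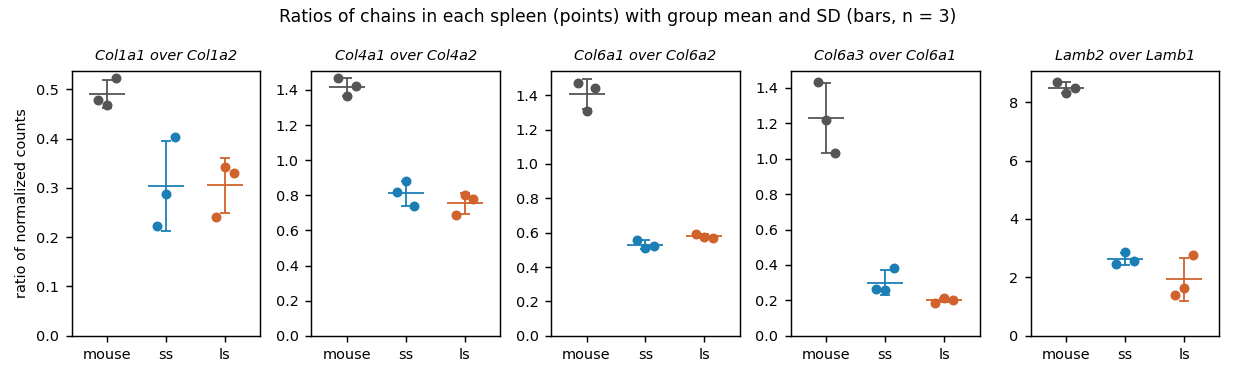
Ratios of the normalized counts of pairs of chains (vertical axes, each from 0) in every spleen, with points for spleens and bars for the mean and SD of each group of 3 (ss, ssNM-R; ls, lsNM-R). For Col4a1 over Col4a2 the mice lie between 1.36 and 1.47 and the NM-Rs between 0.686 and 0.879, and no ratio overlaps between the species.

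Proteins that decorate fibres moved in both directions. Postn (chromosome 3, 54165031 to 54194961), which codes for periostin, a collagen-binding protein of growing and stretched connective tissue, had 322, 336 and 317 in mice and between 3672 and 12290.0 (median 8371) in NM-Rs. It was 25.9-fold the mouse mean (log2 difference 4.597, SE 0.30, limma adjusted p = 3.28e-07), and its lowest value, in lsNM-R 1, was still far above the mice. Lum (chromosome 10, 97028135 to 97035337), the fibril proteoglycan lumican, had 11.04, 15.2 and 15.7 in mice and between 50.6 and 92.9 (median 62.6) in NM-Rs (log2 difference 2.18, SE 0.26, limma adjusted p = 2.46e-05), and thus was higher at a low level. Sparc (chromosome 11, 55208002 to 55233582), a matricellular protein that binds collagen and calcium, had 7064, 6764 and 6377 in mice and between 7159 and 12804 (median 9105) in NM-Rs. It was narrowly called higher (log2 difference 0.45, SE 0.16, limma adjusted p = 0.024) and did not pass without mouse 2, at a log2 difference of 0.45, nor without mouse 3, at 0.41.

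Bgn (chromosome X, 70728941 to 70741272), the proteoglycan biglycan, had 10053, 9493 and 8751 in mice and between 1354 and 5449 (median 2606) in NM-Rs, 3.08-fold lower by the means (log2 difference -1.78, SE 0.38, limma adjusted p = 0.00149). Dcn (chromosome 10, 96942245 to 96980777), the related decorin, had 576, 686 and 590.4 in mice and between 209 and 441 (median 364) in NM-Rs (log2 difference -0.91, SE 0.25, limma adjusted p = 0.00646). Every NM-R lay below every mouse for both proteoglycans. Fn1 (chromosome 1, 71632094 to 71699774), the adhesive glycoprotein fibronectin, had 6331, 5276 and 4366 in mice and between 4242 and 6732 (median 5813) in NM-Rs. These ranges overlapped and Fn1 did not pass (log2 difference 0.065, SE 0.18, limma adjusted p = 0.751).

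Of the 6 elastic fibre genes, 2 were higher in NM-Rs and 1 was lower. Fbln5 (chromosome 12, 102984775 to 103057265), which codes for fibulin-5 and brings elastin onto microfibrils, had 1645, 1349 and 1118 in mice and between 6066 and 12181 (median 7942) in NM-Rs, 6.33-fold the mouse mean (log2 difference 2.63, SE 0.23, limma adjusted p = 2.79e-06). Fbln7 had the highest fold change of the group, with 16.1, 16.3 and 8.39 in mice and between 604 and 834 (median 723) in NM-Rs (log2 difference 5.68, SE 0.21, limma adjusted p = 1.02e-08). Fbln2 had the lowest, with 232, 235 and 274 in mice and between 54.7 and 190.2 (median 105) in NM-Rs (log2 difference -1.19, SE 0.32, limma adjusted p = 0.00625). For these 3 genes the species did not overlap.

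Fbn1 (chromosome 2, 125126330 to 125333729), the fibrillin of microfibrils, had 1109.8, 835 and 739 in mice and between 605 and 997 (median 656) in NM-Rs. The ranges overlapped and the gene did not pass (log2 difference -0.30, SE 0.19, limma adjusted p = 0.161), although without ssNM-R 6, the highest NM-R, it did as lower, at a log2 difference of -0.41. In mm9, 20.1% of its exonic length lies opposite exons of Gm9913, and whether the counting used strand is not stated. Fbln1 and the low Fbn2 did not pass either, at log2 differences of 0.10 and 0.45 (limma adjusted p = 0.765 and 0.293).

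Among the 5 lysyl oxidases, 1 was higher in NM-Rs and 2 were lower. Loxl1 (chromosome 9, 58135530 to 58161019), the family member needed for elastic fibres, had 605, 543 and 468 in mice and between 111 and 309 (median 174) in NM-Rs, 2.88-fold lower by the means (log2 difference -1.59, SE 0.20, limma adjusted p = 3.56e-05). Loxl4, at under 25 normalized counts in every spleen, was lower at a log2 difference of -1.06, limma adjusted p = 0.0172, a call lost without mouse 1, at -0.94. Loxl3 had 251, 223 and 189.8 in mice and between 281 and 429 (median 361) in NM-Rs (log2 difference 0.66, SE 0.14, limma adjusted p = 0.00174), with 12.8% of its mm9 exonic length opposite exons of Htra2. Lox, the founding member, had 84.3, 98.9 and 76.6 in mice and between 55.5 and 114 (median 60.5) in NM-Rs and did not pass (log2 difference -0.37, SE 0.23, limma adjusted p = 0.16). Its highest NM-R value was that of lsNM-R 1, and without that spleen Lox passed as lower, at -0.52. Loxl2 did not pass, at -0.39, limma adjusted p = 0.0621. Loxhd1 was close to 0 throughout, with 10.03, 12.0 and 0 in mice and between 0 and 1.41 (median 0) in NM-Rs (log2 difference -1.97, limma adjusted p = 0.0437). That call was lost without mouse 1, mouse 2, ssNM-R 3, ssNM-R 6, lsNM-R 4 or lsNM-R 5, at -1.86 to -1.31.

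Of the 15 matrix metalloproteinases, 4 were higher in NM-Rs and 7 lower. Mmp14 (chromosome 14, 55050441 to 55060095), a membrane-bound collagenase that activates Mmp2, had 1101, 1014 and 949 in mice and between 1109 and 1883 (median 1365) in NM-Rs (log2 difference 0.50, SE 0.16, limma adjusted p = 0.0169). All NM-Rs were above all mice for Mmp14, but the call was lost without mouse 2, at a log2 difference of 0.50, and without mouse 3, at 0.45. Mmp2 (chromosome 8, 95351227 to 95377316), a gelatinase, had 464, 459.8 and 402 in mice and between 253 and 435 (median 350.2) in NM-Rs and did not pass (log2 difference -0.37, SE 0.17, limma adjusted p = 0.0674), whereas without ssNM-R 3 it passed as lower, at -0.48, as it did with libraries scaled to the same total, at -0.43. Mmp25 (chromosome 17, 23766425 to 23782236), a membrane-anchored enzyme known from neutrophils, had 92.3, 95.7 and 82.8 in mice and between 306 and 709 (median 554) in NM-Rs (log2 difference 2.52, SE 0.15, limma adjusted p = 1.57e-07).

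A pair of metalloproteinases was read in 1 species almost alone. Mmp12 (chromosome 9, 7344381 to 7369499), the elastase of macrophages, had 127, 85.9 and 96.5 in mice and between 0 and 1.41 (median 0) in NM-Rs, that is, 298 reads in the 3 mice and 1 read in the 6 NM-Rs. The ratio of mouse to NM-R was 696, with a 95% exact interval of 124 to 27570.3 for counting error only. Mmp21 (chromosome 7, 140865953 to 140871744), an enzyme known for its part in left-right asymmetry, had 0, 1.09 and 0 in mice and between 73.9 and 131 (median 105) in NM-Rs, from 1 read and 660 reads. Its ratio of NM-R to mouse was 283, with an interval of 50.6 to 11183. The fitted log2 differences of -6.47 and 6.31 depend on the 1 added to each value and are no bounds.

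The other metalloproteinases called lower were Mmp23b, Mmp28, Mmp16, Mmp11, Mmp3 and Mmp15, at log2 differences of -3.00 to -0.99. Mmp23b, at 404 ± 25.6 in mice and 53.2 ± 24.7 in NM-Rs, was the most abundant of them in mice. The call of Mmp3, whose values overlapped between the species, was lost without any single spleen but ssNM-R 6 or lsNM-R 5, at -1.73 to -1.27. Mmp24, the fourth called higher, was read once in the mice and stood at 7.58 ± 5.05 in NM-Rs. Mmp17, Mmp19 and Mmp27 did not pass, at log2 differences of -0.32 to -0.10. In mm9, exons of other genes lie opposite 23.1% of the exonic length of Mmp19 and 12.0% of that of Mmp28.

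Of the 4 metalloproteinase inhibitors, 3 were higher in NM-Rs and 0 lower. Timp1 (chromosome X, 20447292 to 20451861), the inducible inhibitor, had 46.2, 57.6 and 62.9 in mice and between 84.8 and 147 (median 105) in NM-Rs (log2 difference 0.95, SE 0.21, limma adjusted p = 0.00186). Timp3 (chromosome 10, 85763117 to 85812251), which is bound to the matrix, had 3887, 3284 and 2518 in mice and between 4019 and 8979 (median 4989) in NM-Rs (log2 difference 0.79, SE 0.23, limma adjusted p = 0.00903). The species did not overlap for either gene, but without mouse 3 the call of Timp3 was lost, at a log2 difference of 0.63, and 21.3% of its mm9 exonic length lies opposite exons of Syn3. Timp2 (chromosome 11, 118162383 to 118217054), which takes part in the activation of Mmp2, had 4938, 4219 and 3672 in mice and between 2784 and 4660.0 (median 3021) in NM-Rs and did not pass (log2 difference -0.36, SE 0.18, limma adjusted p = 0.0881). Without ssNM-R 6, the highest NM-R, it passed as lower, at -0.47. Timp4 was called higher (log2 difference 1.56, limma adjusted p = 0.00466) at low levels, with 2.12 ± 1.13 in mice and 8.77 ± 5.88 in NM-Rs.

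Of the 17 ADAMTS proteases, 6 were higher and 6 lower in NM-Rs, near the shares over all genes of 39.7% and 38.8%. Adamts1 (chromosome 16, 85794072 to 85803358), which cleaves versican and aggrecan, had 232, 223 and 179 in mice and between 906 and 2123 (median 1489) in NM-Rs, 6.79-fold the mouse mean (log2 difference 2.71, SE 0.24, limma adjusted p = 2.65e-06). Adamts5 (chromosome 16, 85858415 to 85901370), an aggrecanase that lies next to it, had 403, 346 and 389 in mice and between 13.7 and 147 (median 35.4) in NM-Rs (log2 difference -3.26, SE 0.36, limma adjusted p = 1.63e-05). The adjoining pair thus was called in opposite directions, with no overlap of the species for either gene. Adamts10 (chromosome 17, 33661149 to 33690727), which binds fibrillin, had 2726, 2462 and 2144 in mice and between 762 and 1364 (median 1269.7) in NM-Rs (log2 difference -1.05, SE 0.17, limma adjusted p = 2.35e-04).

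Adamts13 (chromosome 2, 26828936 to 26865148), which cleaves von Willebrand factor, had the highest fold change of the proteases, with 104, 54.3 and 64.0 in mice and between 448 and 829 (median 606) in NM-Rs (log2 difference 3.04, SE 0.21, limma adjusted p = 5.58e-07). The gene of its substrate, Vwf, had 1392 ± 209.9 in mice and 360.0 ± 101 in NM-Rs (log2 difference -1.99, limma adjusted p = 1.03e-05). Adamts6 (chromosome 13, 105077953 to 105284843) had the lowest, with 259.9, 238 and 239 in mice and between 10.1 and 33.9 (median 15.7) in NM-Rs (log2 difference -3.68, SE 0.36, limma adjusted p = 6.39e-06). Adamts7, Adamts15, Adamts18 and Adamts19 were also called higher, at log2 differences of 1.42 to 1.84, although Adamts18 and Adamts19 were read only once each in the mice and Adamts15 overlapped between the species and lost its call without mouse 2, at 1.26, or mouse 3, at 1.30. Adamts12, Adamts16 and Adamts20, all under 35 normalized counts in every spleen, were called lower, at -3.13 to -1.34, of which Adamts12 lost its call without mouse 1, at -1.40, or mouse 2, at -1.15. The procollagen N-proteinases Adamts2 and Adamts14, with Adamts9 and Adamts17, did not pass, at -0.40 to 0.026. Adamts4 did not pass at a log2 difference of 2.33, limma adjusted p = 0.0719, although all NM-Rs lay above the mice. ssNM-R 6 held 1503 normalized counts and the other 5 NM-Rs 24.6 to 120.4.

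All 5 ADAMTS-like genes, whose proteins lack the protease part, were called. Adamtsl3 (chromosome 7, 89484204 to 89762960) had 21.1, 16.3 and 19.9 in mice and between 544 and 885 (median 795) in NM-Rs (log2 difference 5.20, SE 0.14, limma adjusted p = 1.34e-09). Adamtsl4, which binds fibrillin, was higher as well, at 2.497, limma adjusted p = 3.76e-06. Adamtsl2 (chromosome 2, 26934899 to 26964501), which also binds fibrillin and lies on the same chromosome as Adamts13, had 1270.3, 994 and 956 in mice and between 49.4 and 224 (median 89.4) in NM-Rs, 10.05-fold lower by the means (log2 difference -3.47, SE 0.26, limma adjusted p = 8.05e-07). Adamtsl1 and Adamtsl5 were lower, at log2 differences of -2.65 and -2.88.

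Levels of different genes were compared only per length and only in mice, where mm9 gives the exonic length of 95 of the 97 genes. Per kilobase of exon, Bgn led with 2647 ± 183 normalized counts (SD, n = 3), followed by Sparc with 2000.3 ± 102 and Timp2 with 1098 ± 163. Fn1 stood at 638 ± 118, Col4a1 at 629 ± 107 and Col14a1 at 528 ± 129, levels that lie within each other's spread for neighbours in this order. Next came Col4a2, Adamts10, Timp3 and Mmp14, between 456 and 393, again with neighbours within each other's spread. The genes most abundant per length in mice thus included Bgn and Col14a1, both lower in NM-Rs, and Col4a1 and Col4a2, both higher. They also included Sparc, which was narrowly called higher, and Timp2 and Fn1, which did not pass.

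Genes that make, anchor or bind the matrix but fall outside the symbol rule were read from 3 further lists. Of 17 collagen biosynthesis genes in the table, 10 were higher in NM-Rs and 3 lower (median log2 difference 0.77). All 3 prolyl 3-hydroxylases were higher, led by P3h2 at 885 ± 135 in mice and 5196 ± 659.8 in NM-Rs (a log2 difference of 2.55, limma adjusted p = 3.99e-08), as was the subunit P4ha2 of prolyl 4-hydroxylase, at 1.79. Pcolce, the enhancer of the protease that trims procollagen, was lower, at 1010.1 ± 76.7 in mice and 46.5 ± 8.22 in NM-Rs (-4.43), and so were the lysyl hydroxylase Plod2, at -2.04, and the collagen galactosyltransferase Colgalt1, at -1.25. Another lysyl hydroxylase, Plod1, was higher, at 691 ± 54.5 in mice and 1188 ± 181 in NM-Rs (0.77), and Plod3 did not pass (limma adjusted p = 0.115). The collagen chaperone Serpinh1 had 1540.0 ± 59.1 in mice and 1651 ± 186 in NM-Rs and did not pass (limma adjusted p = 0.41).

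Of 16 basement membrane linkers and matrix receptors, 8 were higher and 5 lower (median 0.29). The nidogens, which tie laminin to type IV collagen, were both higher, Nid1 at 3204 ± 645 in mice and 18833 ± 3382 in NM-Rs (a log2 difference of 2.55, limma adjusted p = 4.81e-07) and Nid2 at 467 ± 95.2 in mice and 5432 ± 1074 in NM-Rs (a log2 difference of 3.54, limma adjusted p = 5.35e-08). The laminin-binding integrin chain Itgb4 and dystroglycan (Dag1) were higher at 2.29 and 1.00, as were the integrin chains Itga7, Itga5 and Itgb1, at 1.48, 0.63 and 0.27. Itga6, the partner of Itgb4, was lower at -0.76, and so were the collagen receptors Ddr1, Ddr2 and Itga1, at -1.42, -1.84 and -0.78. Of 22 other fibre-associated genes, 10 were higher and 9 lower (median 0.27). Among them the latent TGF-beta binding protein Ltbp1 was higher at 3.36 and Ltbp4 lower at -1.94, the fibulin-like Efemp1 was higher at 2.89, and tenascin-X (Tnxb) and the microfibril protein Mfap5 were lower at -2.28 and -5.20.

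Markers of the cells that make or carry the matrix also differed between the species. Of 9 smooth muscle genes, 6 were higher in NM-Rs and 1 (Des) lower, and their summed normalized counts were 8663 to 11865 in mice, 25262 to 40520.2 in ssNM-Rs and 20518 to 33733 in lsNM-Rs. The 8 fibroblast and pericyte genes were divided 4 to 4, with sums of 5877 to 7428, 4455 to 5573 and 4028 to 5395. The lower genes were Thy1, with the largest drop, at 1721 ± 154 in mice and 299 ± 78.4 in NM-Rs, Pdgfra, Tcf21 and Dpt. The higher genes were Pdgfrb, at 1768 ± 456 in mice and 2521 ± 386 in NM-Rs, Rgs5, Cspg4 and Pi16. Of 9 endothelial genes, 1 (Emcn) was higher and 5 lower, with sums of 14420.4 to 17398, 7706 to 7808 and 6847 to 7631. Most of the lower endothelial sum came from Stab2, with 5579 ± 682 in mice and 1429 ± 141 in NM-Rs, Pecam1, with 3860.2 ± 378 in mice and 970.0 ± 122 in NM-Rs, and Vwf. Emcn had 26.2 ± 2.75 in mice and 253 ± 65.3 in NM-Rs, and Kdr, Egfl7 and Cdh5 did not pass, at log2 differences of -0.27, -0.32 and -0.045. The defining genes Acta2, Pdgfrb and Cdh5 were present in all 9 spleens, with Cdh5 at 1339 ± 248 in mice and 1284 ± 67.4 in NM-Rs.

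Of 12 macrophage genes, 6 were higher in NM-Rs and 4 lower (sums 60552 to 75926 in mice, 72346 to 104889.7 in ssNM-Rs and 85862 to 99838 in lsNM-Rs). Of 16 listed granulocyte genes only 9 could be read, of which 7 were higher and 2 lower (sums 8233 to 10679, 26856 to 35171 and 36483 to 46219). Of 10 listed megakaryocyte genes only 5 could be read, 2 higher and 1 lower (sums 3374 to 4868, 9927 to 11249 and 7454 to 13987). Genes of neighbouring tissues were checked too. Of 6 mesothelium genes 1 (Msln) was higher and 0 lower (sums 594 to 855, 792 to 2609 and 1051 to 1725), and of 6 adipose genes 4 and 0 (sums 7.02 to 115, 964 to 1213 and 1039 to 2017). The adipose sums of NM-Rs came mostly from Cfd, at 674 ± 182, and Retn, at 492 ± 219. Adipoq and Lep, also called, had 66.0 ± 25.9 and 11.5 ± 9.23 in NM-Rs. Plin1 and Cidec, at 5.07 ± 4.72 and 9.53 ± 8.19, did not pass. Of 8 listed pancreas genes only 4 could be read, of which 2 were higher and 1 lower (sums 365 to 497, 159 to 188 and 136 to 232). The mouse sums came almost wholly from Cela1, at 417 ± 68.2 in mice and 39.0 ± 11.2 in NM-Rs. Cpa1 and Cel went the other way. Cpa1 had 1.05 ± 1.82 in mice and 96.3 ± 26.6 in NM-Rs, and Cel had 0 in the mice and 44.7 ± 9.33 in NM-Rs. Cpb1 did not pass. The part of these cells and tissues in the levels of the matrix genes was not tested.

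Each cohort was also compared to the mice on its own, the same 3 mice serving both comparisons. In ssNM-Rs 47 matrix genes were higher and 26 lower than in mice (limma, adjusted p under 0.05), where the background was 38.0% and 37.5%. In lsNM-Rs the counts were 43 and 26, on a background of 38.1% and 37.0%. The median log2 difference was 0.41 in ssNM-Rs and 0.34 in lsNM-Rs. Postn stood at a log2 difference of 4.80 and 4.39 in the 2 cohorts, Hspg2 at 2.22 and 2.08, Col3a1 at 1.26 and 1.09, and Bgn at -1.62 and -1.94. Sparc passed in ssNM-Rs (log2 difference 0.60, limma adjusted p = 0.0124) and not in lsNM-Rs (0.29, limma adjusted p = 0.165), but the difference between the cohorts was itself -0.30 (limma adjusted p = 0.656).

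Within the NM-Rs, 1 small spleen held the highest value of many matrix genes. Among the 83 matrix genes whose NM-R mean reached 10 normalized counts, ssNM-R 6 held the highest value for 43 (51.8%), whereas it was the highest for 19.7% of all genes at that level. Its median log2 difference from the NM-R mean over these genes was 0.38. lsNM-R 5 came next with 0.17, and the other 4 spleens lay between -0.16 in lsNM-R 4 and -0.063 in ssNM-R 3. The excess of ssNM-R 6 was 0.59 for the basement membrane and network collagens, 0.46 for the fibrillar collagens and 0.20 for laminins and perlecan. Both ssNM-R 6 and lsNM-R 5 belonged to the 3 deepest libraries and were the youngest NM-Rs, while lsNM-R 4, the third deep library, was among the lowest. Among the NM-Rs, ssNM-R 6 and lsNM-R 5 also had the highest sums of smooth muscle markers, 40520.2 and 33733. The same held for fibroblast and pericyte markers, at 5573 and 5395. Most of both these sums came from Pdgfrb, at 3043 and 2782, whereas Thy1 was lowest in ssNM-R 6, at 168. ssNM-R 6 had the highest sum of mesothelium markers, 2609, whereas lsNM-R 5 had 1051. The macrophage and granulocyte sums of ssNM-R 6, 72346 and 26856, were the lowest among the NM-Rs. Its endothelial sum, 7706, lay within the range of the other NM-Rs. The part of depth, age or these cells in the excess was not tested. Among the mice, mouse 1 was the highest for 61 of 87 matrix genes (70.1%, against 44.6% of all genes), and mouse 3 the lowest for 57 (65.5%, against 39.9%).

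**Figure D4:**
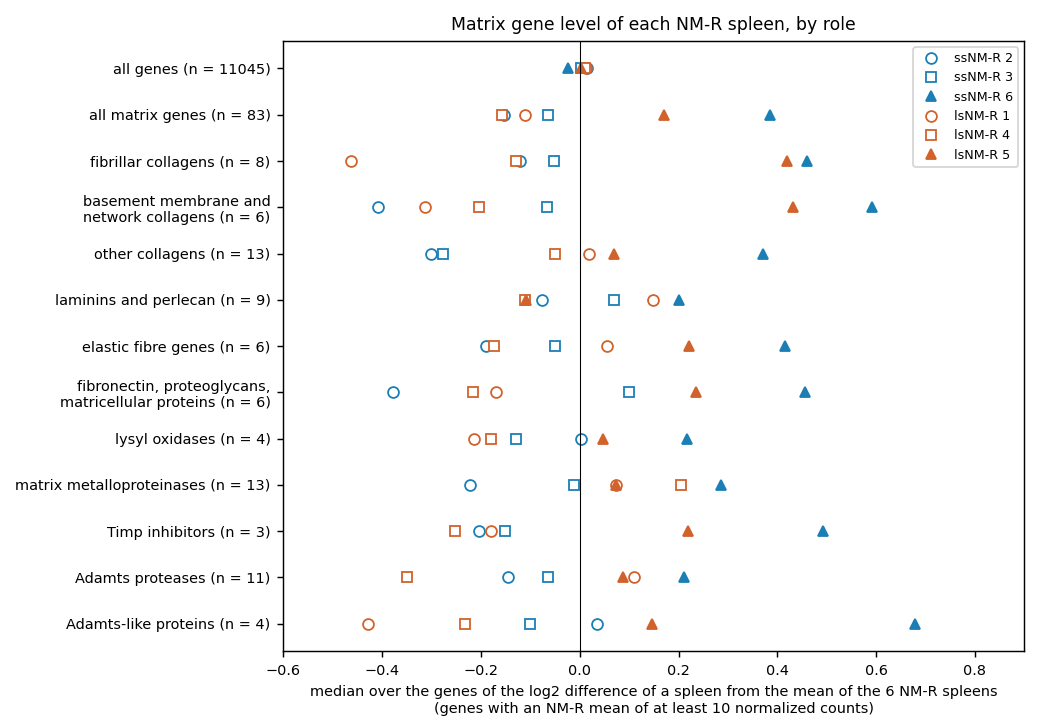
Median log2 difference of each NM-R spleen from the mean of the 6 NM-R spleens (horizontal axis), over all genes, over the matrix genes and over each role group (rows, with the number of genes whose NM-R mean reached 10 normalized counts). Over all genes the 6 spleens lie near 0, which the size factors bring about by centring the median gene of each library. Over the matrix genes ssNM-R 6 (filled triangle, blue) lies at 0.38 and lsNM-R 5 (filled triangle, orange) at 0.17.

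Between enlarged and small NM-R spleens, no matrix gene was called by limma. None passed a limma adjusted p of 0.05 between lsNM-R and ssNM-R (the lowest was 0.429), and the edgeR quasi-likelihood test also called 0 (unadjusted p under 0.05 for 12 matrix genes and for 1106 of all genes). At an unadjusted limma p under 0.05, 5 were higher and 4 lower in lsNM-Rs, where the shares over all genes were 5.24% and 3.55%. DESeq2 called 3, Mmp25, Adamts5 and Adamtsl2, on a background of 0.440%, but called 0 when fitted to the 6 NM-R spleens alone. The cohorts did not overlap for 10 genes, 4 with lsNM-R above and 6 below, and the share over all genes was 13.1%. The median log2 difference of the matrix genes was -0.080, and it became 0.087 without ssNM-R 6.

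The 8 genes with the lowest unadjusted p were described in every spleen. Mmp25 had 306, 447 and 473 normalized counts in ssNM-R 2, 3 and 6 and 636, 679 and 709 in lsNM-R 1, 4 and 5, so that every enlarged spleen was above every small one (log2 0.75, standard error 0.17; limma adjusted p = 0.429). The summed granulocyte markers likewise did not overlap between the cohorts, at 26856 to 35171 in ssNM-Rs and 36483 to 46219 in lsNM-Rs. Most of these sums came from S100a9 and Ltf, and S100a9 by itself overlapped between the cohorts. Of the 9 granulocyte genes, 7 had a positive log2 difference between lsNM-R and ssNM-R, and Mpo and Mmp9 had -0.29 and -0.93. The part of the granulocyte markers in the level of Mmp25 was not tested. Adamts5 had 13.7, 24.0 and 27.2 in ssNM-Rs and 147, 43.7 and 55.8 in lsNM-Rs, with lsNM-R 1 apart from the rest (log2 1.73, standard error 0.42). Adamtsl2 had 99.8, 119 and 224 in ssNM-Rs and 70.6, 49.4 and 79.0 in lsNM-Rs, all lower in the enlarged spleens (log2 -1.08, standard error 0.30). By DESeq2 the adjusted p of these 3 genes was 0.0244, 0.0133 and 0.044.

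Mmp19, a broad-range metalloproteinase, had 159, 182 and 174 in ssNM-Rs and 91.8, 88.8 and 128 in lsNM-Rs, and Loxl1 had 215, 177 and 309 and 141, 111 and 171. Both were lower in each enlarged spleen than in each small one (log2 -0.75, standard error 0.19, and log2 -0.71, standard error 0.23). Adamtsl3 was lower without overlap as well, with 885, 832 and 822 in ssNM-Rs and 544, 619.8 and 769 in lsNM-Rs (log2 -0.41, standard error 0.16). Mmp16, a membrane-type metalloproteinase, had 27.3, 25.5 and 12.6 in ssNM-Rs and 42.4, 34.6 and 43.9 in lsNM-Rs, without overlap (log2 0.92, standard error 0.34). Lamc3 had 69.7, 40.5 and 112 and 162, 183 and 88.4, which overlapped (log2 1.01, standard error 0.39). Among the basement membrane genes, the log2 differences between the cohorts were -0.063 for Col4a1, 0.041 for Col4a2, -0.14 for Hspg2 and -0.29 for Lama5 (standard errors 0.25, 0.27, 0.16 and 0.22). The lsNM-R libraries were deeper in the median, and with library depth as a further term 18 matrix genes had an unadjusted p under 0.05 (1671 of all genes), again with 0 past the adjusted threshold. Each depth class held only 1 spleen of one of the cohorts, so no test was made within a class.

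**Figure D5:**
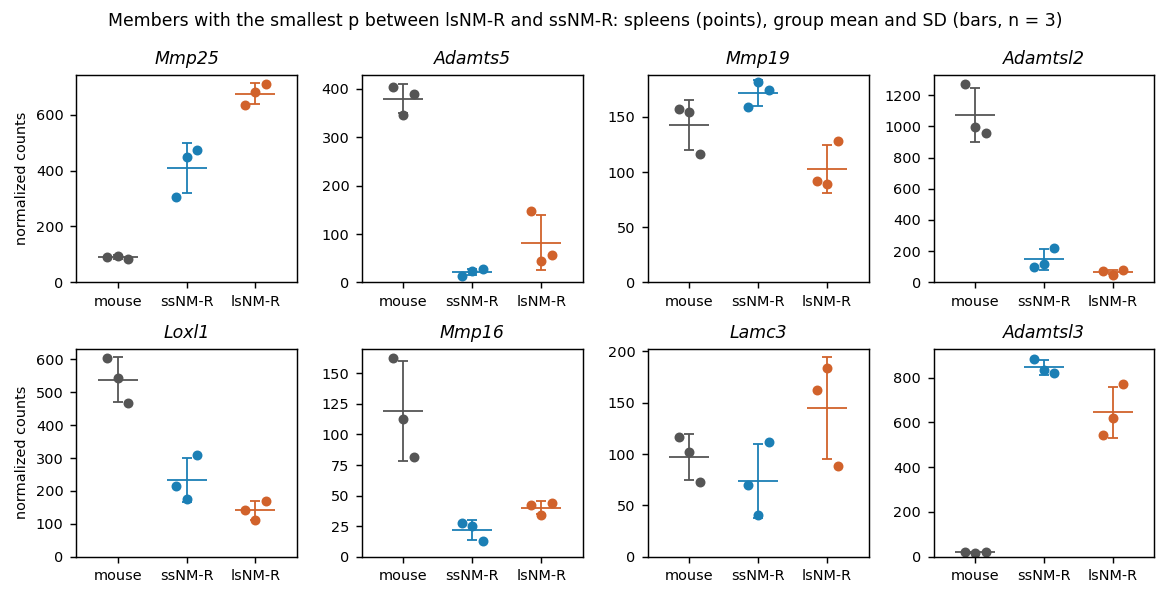
Normalized counts (vertical axes, each from 0) of the 8 matrix genes with the lowest unadjusted p between lsNM-R and ssNM-R, with points for spleens and bars for the mean and SD of each group of 3. The cohorts do not overlap for 7 of the 8 genes and overlap for Lamc3, and none passed a limma adjusted p of 0.05.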

How the data were processed

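One RNA-seq library per animal had been made from the spleens of 3 animals in each group. A HiSeq instrument and stranded mRNA libraries stand in the labels, a NovaSeq and total RNA libraries in the study's methods. Per the labels and methods, the authors mapped mouse reads to mm9 and NM-R reads to hetGla2 with STAR 2.5.3a and assigned them to genes with HTSeq 0.10.0 (both named in the submitters' processing notes; strand setting not stated). NM-R genes were named by mouse homology. They dropped genes with few reads and scaled both species together with DESeq2 size factors. The signal values the authors deposited are these normalized counts. Every value (100%) was a whole multiple of its library's step within 0.01 of a step, so the whole reads could be recovered.

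Groups followed species and spleen size in the labels. The main test was limma 3.58.1 (R 4.3.3) on log2(normalized count + 1), which understates the fold of low genes. All 9 spleens entered with group means only, the variance followed a trend, tests were 2-sided, and p-values were adjusted (Benjamini-Hochberg) over 12946 genes. Folds in the text are ratios of mean normalized counts. On the recovered reads, edgeR 4.0.16 called 5163 genes higher and 4948 lower in NM-Rs than in mice, and DESeq2 1.42.0 called 5060 and 4964. Other pseudocounts, a filter on low values, other scalings, a fit without a trend, a replicate block, depth as a term and leaving out each spleen were also tried. Intervals cover counting error only.

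Values by spleen are given for a core set, for the highest and lowest log2 difference of each role group (mean of at least 10) and for the 8 lowest p between the cohorts, and for further genes chosen after their values were seen. One gene of these is not reported here. The genes, lists and tests were chosen with earlier results of these data known. Positions and exonic lengths are those of the mm9 gene annotation, 1-based. In the NM-R libraries only Mmp12, near 0, shared its values with another gene. The numbers in the labels pair no animals: mice and NM-Rs of the same number are different species, and their deviations from the group means correlated at 0.0101, -0.00453 and 0.000765.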

Additional observations from a re-analysis of the deposited data

Results flagged for a closer look

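In 12 of the 83 matrix genes tested, 1 NM-R spleen lay apart from the other 5, with a gap to its nearest neighbour that was, as a share of the range of the 6 spleens, above the critical value of Dixon's test. Chance sets apart about 1 in 20 groups, and whether the 12 exceed chance was not tested. In 7 of the 12 the spleen was ssNM-R 6. It held 1503 normalized counts of Adamts4, an aggrecanase (24.6 to 120.4 in the others), 557 of Adamts9 (108 to 210.4), 528 of Adamts2 (209 to 298) and 205 of Adamts15 (45.1 to 101). The same spleen held 10329 of Col18a1 (4313 to 6383), 889 of Col6a3 (306 to 409) and 197 of Mmp17 (73.8 to 119).

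In 3 of the 12 the spleen was lsNM-R 1. It held 114 normalized counts of Lox, against 55.5 to 63.5 in the others, 362 of Adamts14, against 179 to 212, and 147 of Adamts5, against 13.7 to 55.8. lsNM-R 4 stood low for Adamts10, at 762 against 1224 to 1364. ssNM-R 3 stood high for Mmp15, at 76.6 against 52.2 to 55.8. In no matrix gene did all spleens of one cohort lie above the mice and all of the other below them.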

How the results depend on the processing

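Across the settings tried, 172 counts of matrix genes kept within 1.5 times the reported count and 2 did not. Both of these came from DESeq2 between lsNM-R and ssNM-R, which called 2 genes higher and 1 lower where limma called 0. Of the counts for role groups, 461 kept within that limit and 19 did not, such as laminins and perlecan lower, from 0 to 1 with quantile normalization. In the comparison of NM-R and mouse, 35 genes were called higher and 22 lower under all 21 settings. Rescaling to the same upper quartile moved the median of all genes to 0.10 between NM-R and mouse, and the median of the matrix genes between lsNM-R and mouse to 0.43. With 1 spleen left out at a time, the genes higher in NM-Rs numbered 41 to 48 and those lower 24 to 31, and the median was 0.30 to 0.46. The median was 0.30 to 0.43 between lsNM-R and mouse and -0.23 to 0.087 between the cohorts, where it changed sign without ssNM-R 6. Males alone means leaving out lsNM-R 4. Fitting the compared groups alone equals the reported fit for NM-R and mouse.

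The sign of Lamc3 between NM-R and mouse turned with the same total (-0.023), without mouse 3 (-0.17), ssNM-R 6 (-0.15), lsNM-R 1 (-0.028) or lsNM-R 4 (-0.072; up to 0.21 without ssNM-R 3), and that of Fn1 (up to 0.20 without mouse 1) with quantile normalization (-0.064) and without mouse 3 (-0.070) or lsNM-R 5 (-0.011). Neither was called. The call of Sparc was also lost with the same total (0.39) and quantile normalization (0.27). The causes were not tested. Genes at or under 3 reads in a species are limited by depth.

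The animal number as a replicate block pairs mice with NM-Rs of another species. Numbers 4, 5 and 6 belong to a single spleen each, so the block terms fit lsNM-R 4, lsNM-R 5 and ssNM-R 6 exactly. The comparisons then rest on lsNM-R 1, ssNM-R 2 and ssNM-R 3 with the mice, and only log2 differences are given. With the block the median was 0.15 between lsNM-R and mouse and -0.25 between the cohorts, Lamc3 was at -0.10, Fn1 at -0.068, and Mmp16 between the cohorts at -0.090. Between NM-R and mouse, Col1a1 was at -0.86, Fbn1 at -0.54, Timp2 at -0.56, Mmp14 at 0.24 and Sparc at 0.28.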
